A study of Homo sapiens with 9 samples.

Results

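The nuclear pore complex and the receptors that carry cargo through it were followed in MCF10A cells after ERBB2 transduction or EGF. The genes were chosen by symbol: a name that starts with NUP and a digit, KPNA, KPNB, IPO and a digit, XPO and a digit, TNPO or RANBP and a digit, or the symbol RAN. This gave 59 of the 19775 genes that a probe set names alone, and each gene was represented by its brightest probe set over all arrays. Of the 59, 55 passed the filter on low signal, and 48 of these 55 have an established transport role. The 4 below the filter were IPO11, NUP133-DT, NUP210L and RANBP3L, whose group means reached at most 7.60 signal units. Symbols alone brought in 7 of the 55, among them the scaffold protein RANBP9, pseudogenes and antisense or divergent transcripts.

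MCF10A cells are human mammary epithelial cells, immortalized but not tumorigenic, and need EGF to grow. Their total RNA was hybridised to 9 one-colour Affymetrix arrays, 3 biological replicates in each of 3 groups. The ERBB2 group was transduced with pBabe-ErbB2, a retrovirus that encodes this receptor tyrosine kinase, the EGF group received the empty pBabe virus followed by 50 ng/ml EGF for 2 h, and the vector group was given the empty virus with no EGF. All had been grown with EGF at 20 ng/ml, horse serum at 5%, insulin, cholera toxin and hydrocortisone, and all were moved after infection to 2% horse serum without EGF. The time between infection and harvest is not given in the sources used here, so the ERBB2 and EGF groups differ in agent and possibly in duration. pBabe inserts are transcribed from the viral long terminal repeat in whichever cells are infected. Whether the replicates were infected separately is not stated in the labels, so the p-values speak for the spread among these samples, which may be technical.

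The nuclear pore is built from nucleoporins: a Y-shaped scaffold and an inner ring hold it in the nuclear envelope, and nucleoporins with phenylalanine-glycine repeats fill its channel. Importin alpha adaptors bind a nuclear localization signal and are carried in by importin beta, while other importins and the exportins bind cargo themselves. The GTPase RAN sets the direction, since its GTP form releases cargo from importins and is needed for exportins to hold theirs, and in mitosis the same system guides spindle and envelope assembly.

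Several facts of the arrays bear on every comparison. The brightest ERBB2 probe set was lower in ERBB2-labelled arrays, at 114.1, 72.2 and 110.2, than in the vector arrays, at 183.9, 216.2 and 121.9 (log2 change -0.71 ± 0.20, SE, limma adjusted p = 0.00676). Leaving out ERBB2 replicate 2 (-0.54, adjusted p = 0.0521) or vector replicate 2 (-0.55, adjusted p = 0.0508) ended this call. A dimmer probe set was higher there (0.89, adjusted p = 0.00882), so the group is called ERBB2-labelled throughout. DUSP6, a feedback phosphatase of the ERK pathway, averaged 962.6 in ERBB2-labelled arrays, 2789 in EGF arrays and 9.42 in vector arrays. Each of the 9 arrays correlated best with one of its own group. Dividing the 5′ by the 3′ signal of the ACTB control gave 0.737 ± 0.051 (SD, n = 3) in ERBB2-labelled arrays, 0.444 ± 0.063 in EGF arrays and 0.379 ± 0.055 in vector arrays. The 3′ control signal for 18S RNA lay between 11926 and 13513 in ERBB2-labelled arrays, between 2103 and 3369 in EGF arrays and between 1945 and 4569.7 in vector arrays. Epithelial markers passed the filter for 10 of 10 genes measured of 12 listed, and their summed signal was 31903 to 34250 in ERBB2-labelled arrays, 40866 to 46482 with EGF and 38526 to 44436 with vector. Within that list the basal keratin KRT14 had a log2 change of -4.00 in ERBB2-labelled arrays and -0.57 with EGF. Fibroblast markers summed to 394.7 to 576.2 in ERBB2-labelled arrays, 501.6 to 557.6 in EGF arrays and 1357 to 1509 in vector arrays, mostly DCN, with COL3A1, PDGFRB and LUM below the filter. Of the blood markers CD14 alone passed, and the list summed to 137.1 to 188.3 in ERBB2-labelled arrays, 193.1 to 209.4 with EGF and 178.2 to 205.5 with vector. Of the endothelial markers PECAM1 alone passed, and that list summed to 95.4 to 110.7 in ERBB2-labelled arrays, 37.2 to 55 with EGF and 33.8 to 50.2 with vector. The part of these differences in the results below was not tested, and in bulk RNA fewer cells of a type and less RNA per cell cannot be told apart.

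Most pore and transport genes were higher in ERBB2-labelled arrays than with vector. Of the 55 genes 33 rose (60%) and 1 fell (1.82%), where over all 13723 genes tested 20.8% rose and 25.1% fell. EGF for 2 h raised 28 of the 55 (50.9%) and lowered 2 (3.64%), against 17.2% and 19.0% of all genes. The 2 falls became 1 without vector replicate 1, EGF replicate 2 or EGF replicate 3, and 4 without ERBB2 replicate 1, and the 1 fall in ERBB2-labelled arrays became 2 without ERBB2 replicate 3. The median log2 change of the 55 was 0.43 in ERBB2-labelled arrays and 0.28 with EGF, beside -0.07 in ERBB2-labelled arrays and -0.10 with EGF for all genes. Changes were called at a Benjamini-Hochberg adjusted p under 0.05 in limma on log2(signal + 16), a scale that understates the change of dim genes. In ERBB2-labelled arrays 14 genes passed a change of 2-fold, and with EGF 4 did. The share of all genes past 2-fold was not counted. Both comparisons share the 3 vector arrays, so a low or high vector value moves both, and the direct comparison of ERBB2-labelled arrays with the EGF arrays is given separately. In that comparison 19 of the 55 were higher (34.55%) and 6 lower (10.9%), beside 12.8% and 16.1% of all genes.

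**Figure D1:**
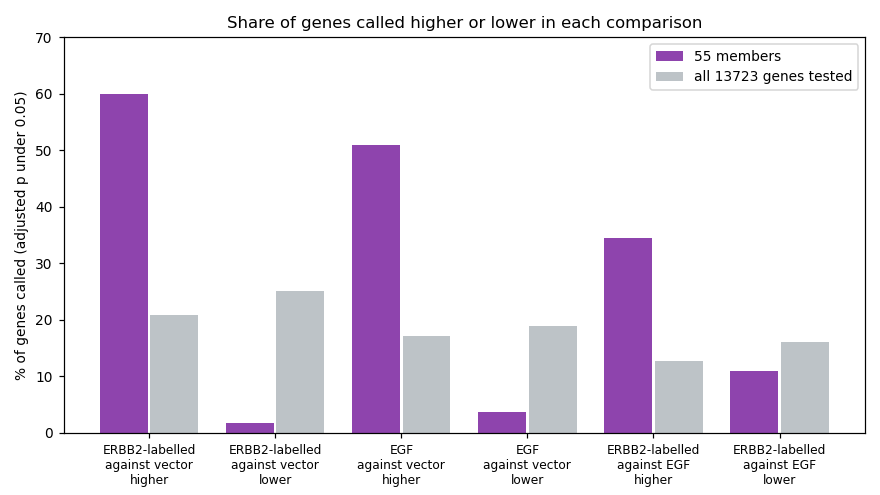
Percent of genes called higher or lower at an adjusted p under 0.05 in the 3 comparisons, for the 55 genes (purple) and all 13723 genes tested (grey). Purple bars exceed grey ones among rises (60% against 20.8%, 50.9% against 17.2% and 34.55% against 12.8%) and fall short of them among falls.

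The counts here are of brightest probe sets alone, and further ones of KPNB1, IPO5 and TNPO1 were called lower in ERBB2-labelled arrays. Of the 48 transport genes proper, 33 rose and 0 fell in ERBB2-labelled arrays at an unadjusted p under 0.05 in limma. After adjustment 32 rose and none fell. Nucleoporins supplied 18 of these rises out of 22 tested, with a median log2 change of 0.90, and importins and exportins 12 out of 23, with a median of 0.37. EGF raised 14 of the 22 nucleoporins (median 0.46) and 11 of the 23 importins and exportins (median 0.22), and lowered KPNA5 and TNPO1. Scaling all arrays to one median, in place of the authors' scaling, moved the median of all probe sets for EGF against vector to 0.05, against -0.11, and rises became 67.5% of all calls, against 44.8%. For ERBB2-labelled arrays against EGF rises became 31.8%, against 48.7%, of all calls. Under that scaling 33 of the 55 genes rose with EGF and 13 were higher in ERBB2-labelled arrays than with EGF, while TNPO1 with EGF was no longer called (log2 change -0.08, adjusted p = 0.510).

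**Figure D2:**
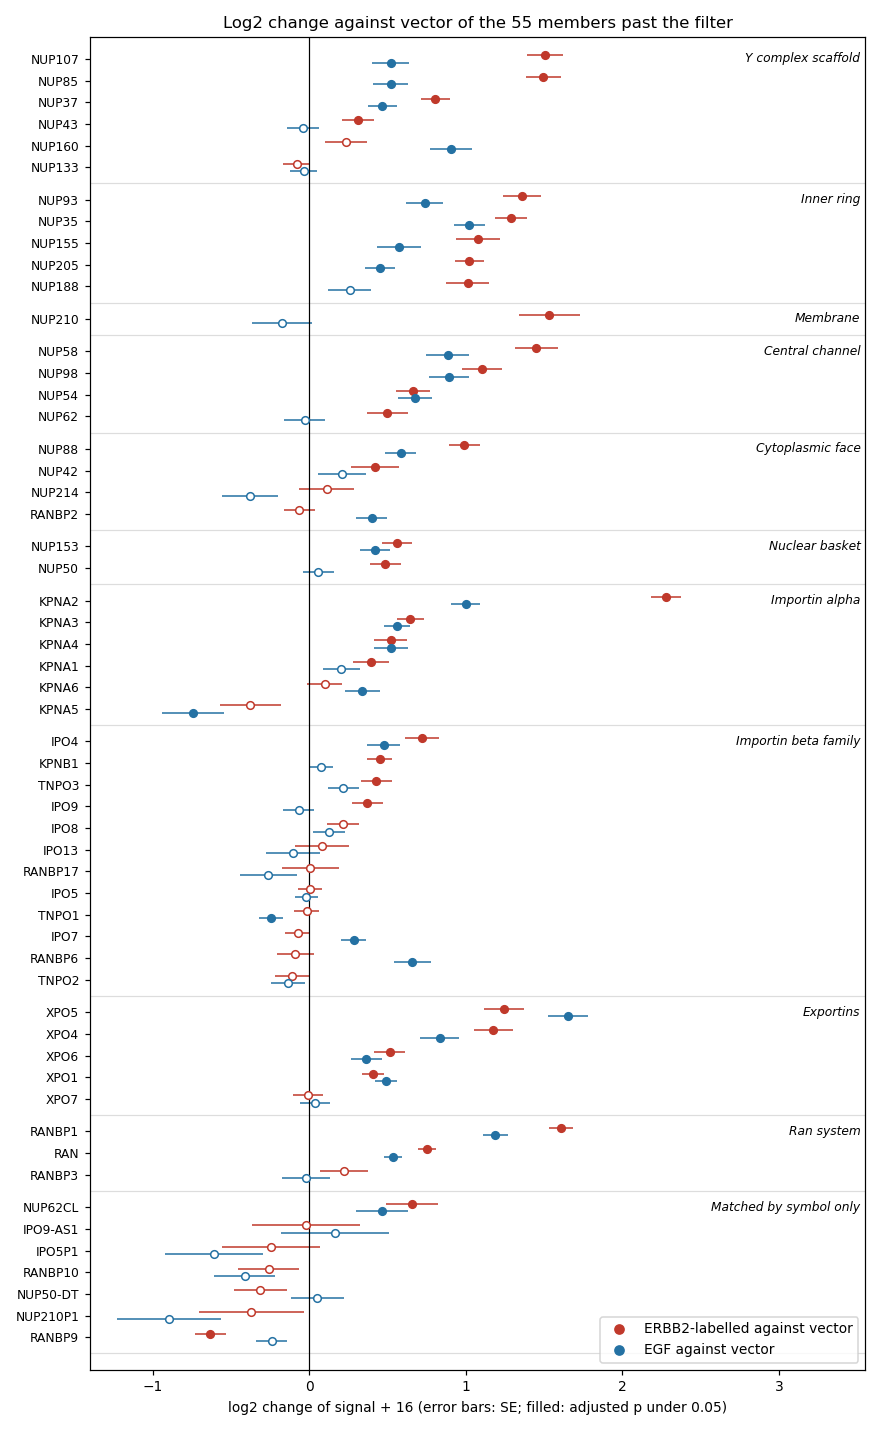
Log2 change of signal + 16 against vector for the 55 genes past the filter, grouped by role, in ERBB2-labelled arrays (red) and with EGF (blue). Bars are SEs and filled points passed an adjusted p of 0.05. All 5 inner ring genes lie at or above 1.01 in red, while importins of the beta family have medians of 0.05 in red and 0.03 in blue.

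Promoters are shown because many of these genes rose in the same arrays, and because CACGTG, the E-box bound by MYC and its relatives, stands in the windows of RAN, XPO1 and NUP188. RefSeq windows on GRCh38.p14, from 250 bases before to 50 after the gene start, matched 51 of the 59 symbols, 48 of them protein coding. In them CACGTG, which reads alike on both strands, occurred for 8 of 48 coding genes (16.7%), beside 10.9% of the windows of 15843 coding genes. Of 29 genes with a window that rose in ERBB2-labelled arrays 6 held it, and of 16 that were tested and did not rise 2 held it. The E-boxes are in capitals.
RAN, chr12:130871944-130871989, plus strand: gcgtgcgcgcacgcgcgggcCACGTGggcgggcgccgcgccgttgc
XPO1, chr2:61537106-61537151, minus strand: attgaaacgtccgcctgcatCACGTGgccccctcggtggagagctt
NUP188, chr9:128947602-128947694, plus strand: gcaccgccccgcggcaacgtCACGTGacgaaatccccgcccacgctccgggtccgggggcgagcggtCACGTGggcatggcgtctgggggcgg
NUP50, chr22:45163731-45163776, plus strand: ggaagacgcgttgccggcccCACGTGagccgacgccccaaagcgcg
KPNA3, chr13:49792723-49792768, minus strand: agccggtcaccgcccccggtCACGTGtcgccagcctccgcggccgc
IPO4, chr14:24188820-24188865, minus strand: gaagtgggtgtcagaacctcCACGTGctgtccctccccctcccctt
IPO7, chr11:9384494-9384539, plus strand: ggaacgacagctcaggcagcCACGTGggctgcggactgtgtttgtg
TNPO2, chr19:12723931-12723976, minus strand: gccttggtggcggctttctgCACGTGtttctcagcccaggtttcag
NUP188 held 2 copies, at positions -77 and -30 from the gene start, and the copy of TNPO2 began at -24. KPNA2, which on its brightest probe set had the largest rise in ERBB2-labelled arrays, has no E-box in its window but 2 copies of CCAAT, the box bound by NF-Y, shown in capitals.
KPNA2, chr17:68035635-68035784, plus strand: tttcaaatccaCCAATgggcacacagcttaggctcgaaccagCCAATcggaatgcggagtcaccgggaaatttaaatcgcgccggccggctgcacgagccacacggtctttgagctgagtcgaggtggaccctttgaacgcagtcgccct
CCAAT, searched on both strands like every motif here, occurred in 50.0% of the 48 windows and 42.1% of all coding windows. The YY1 motif AAGATGGCG was in 14.6% of the 48 and 3.21% of all, held by RAN, NUP88, NUP160, NUP188, NUP205, RANBP10 and RANBP17. The ETS motif ACTTCCGG was in 14.6% of the 48 and 6.98% of all, and the NRF1 core CGCATGCG in 10.4% of the 48 and 3.28% of all. An E2F motif, TTTGGCGC or TTTCCCGC, was in 4.17% of the 48 and 3.70% of all, and the GC box GGGCGG in 58.3% of the 48 and 64.3% of all. Among the 29 genes that rose and the 16 that did not, the ETS motif was held by 6 and 1, YY1 by 4 and 3, and NRF1 by 3 and 1. CCAAT was held by 15 and 7, the GC box by 18 and 10, and an E2F motif by 1 and 1. The sequences shown are of the E-box and CCAAT, although the YY1 motif stood further from its share over all windows. Whether any of these motifs bears on the rises was not tested. These are matches of letters, not measured binding, and a window without a match says only that those letters are not in it.

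RAN, the GTPase itself, was higher in both groups than with vector. Its signal was 8052, 7895 and 7739.6 in ERBB2-labelled arrays, 6767, 6857 and 6744 in the EGF arrays and 4796, 4629.7 and 4594 in the vector arrays. The groups did not overlap, with ERBB2-labelled arrays highest and vector lowest. The log2 change was 0.75 ± 0.06 (SE, limma adjusted p = 2.41e-09) in ERBB2-labelled arrays and 0.54 ± 0.06 (adjusted p = 5.92e-07) with EGF. The call between ERBB2-labelled arrays and EGF (0.22) ended with equal array medians (0.11, adjusted p = 0.241) and on the other RAN probe set (0.07, adjusted p = 0.646). RANBP1, which helps RAN hydrolyse GTP as export complexes leave the pore, read 2202, 2450.3 and 2270.1 in ERBB2-labelled arrays, 1662, 1827 and 1671 in the EGF arrays and 787, 707 and 742 in the vector arrays. Every ERBB2-labelled array lay above every EGF array, and every EGF array above every vector array. RANBP1 was 3.05-fold higher in ERBB2-labelled arrays (log2 change 1.61 ± 0.08, limma adjusted p = 2.69e-12) and 2.28-fold higher with EGF (1.19 ± 0.08, adjusted p = 5.88e-10). RANBP3, a cofactor of XPO1, was not called on its brightest probe set, at 0.22 in ERBB2-labelled arrays and -0.02 with EGF. Another RANBP3 probe set was called, 0.75 higher in ERBB2-labelled arrays than with vector (limma adjusted p = 0.00143) and 0.51 higher than with EGF (adjusted p = 0.0351).

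**Figure D3:**
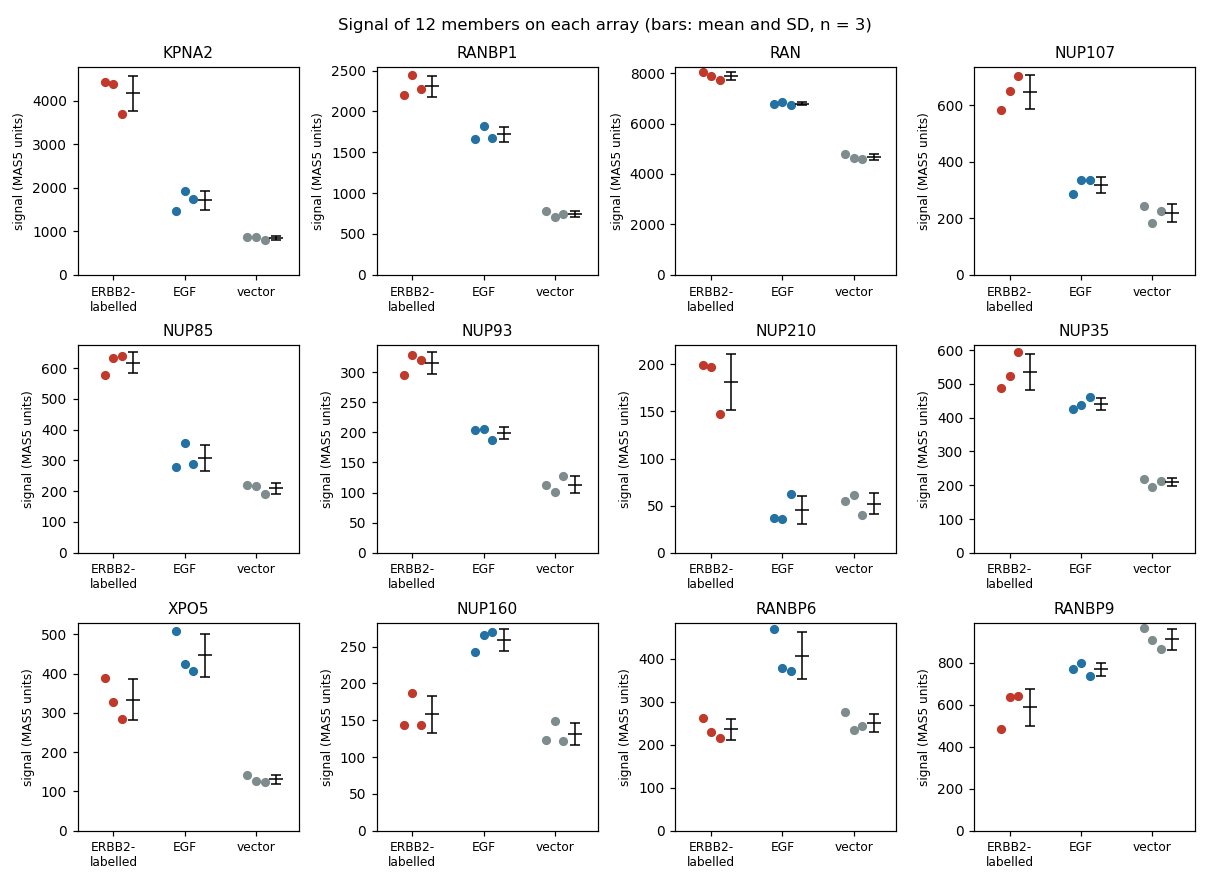
Signal on the authors' linear scale for 12 genes, 1 point per array and 1 panel per gene, with the mean and SD (n = 3) beside the points. KPNA2, RANBP1, RAN, NUP107, NUP85, NUP93 and NUP35 are highest in ERBB2-labelled arrays, XPO5, NUP160 and RANBP6 with EGF, and RANBP9 in the vector arrays, while NUP210 stands out in ERBB2-labelled arrays alone.

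The Y complex scaffold rose in part: 4 of 6 genes in ERBB2-labelled arrays and 4 of 6 with EGF, with median log2 changes of 0.56 in ERBB2-labelled arrays and 0.49 with EGF. NUP107, whose loss keeps other nucleoporins from entering the pore, had a signal of 583, 651 and 705 in ERBB2-labelled arrays, 286, 334 and 335 in the EGF arrays and 244, 183 and 226 in the vector arrays. ERBB2-labelled arrays lay far above every other array, and the EGF arrays lay just above the vector arrays. Its log2 change was 1.51 ± 0.12 (SE, limma adjusted p = 2.75e-09) in ERBB2-labelled arrays and 0.52 ± 0.12 (adjusted p = 0.00195) with EGF. NUP85, of the short arm of the Y, read 579, 633 and 639.9 in ERBB2-labelled arrays, 279, 358 and 288 in the EGF arrays and 221, 215 and 190.2 in the vector arrays. The order of the groups was the one seen for NUP107, with no overlap. NUP85 changed on the log2 scale by 1.49 ± 0.11 (limma adjusted p = 1.52e-09) in ERBB2-labelled arrays and 0.52 ± 0.11 (adjusted p = 0.00125) with EGF. The direct difference between ERBB2-labelled arrays and EGF was 0.99 for NUP107 and 0.97 for NUP85 (limma adjusted p = 2.79e-06 and 1.80e-06). NUP37, which binds NUP160, rose by 0.81 in ERBB2-labelled arrays and 0.47 with EGF, its call with EGF ending when its probe sets were averaged (0.29, adjusted p = 0.118). NUP43 rose by 0.31 in ERBB2-labelled arrays and had a change of -0.04 with EGF; the rise was not called without ERBB2 replicate 1 (0.27, adjusted p = 0.0654) or when its probe sets were averaged (0.24, adjusted p = 0.174).

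NUP160 and NUP133, the long arm and stem of the Y, gave answers that differ between probe sets. The brightest NUP160 probe set read 144, 186 and 143 in ERBB2-labelled arrays, 243, 266 and 269 in the EGF arrays and 123, 149 and 122 in the vector arrays. It was highest with EGF, and ERBB2-labelled arrays overlapped vector. Its log2 change was 0.24 ± 0.13 (SE, limma adjusted p = 0.177) in ERBB2-labelled arrays and 0.91 ± 0.13 (adjusted p = 2.64e-05) with EGF. A dimmer NUP160 probe set gave the larger change in the other group, at 1.54 in ERBB2-labelled arrays (adjusted p = 3.47e-06) and 0.50 with EGF (adjusted p = 0.0687). The brightest NUP133 probe set was at -0.08 in ERBB2-labelled arrays and -0.03 with EGF, but the dimmer one was at 1.35 in ERBB2-labelled arrays (adjusted p = 0.000193) and -0.04 with EGF. Probe positions were not given, so which transcript each probe set reads was not tested.

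The inner ring rose as a whole in ERBB2-labelled arrays: 5 of 5 genes passed, by 1.01 to 1.36 on the log2 scale. NUP93, which anchors the channel nucleoporins to the ring, had a signal of 295, 329 and 321 in ERBB2-labelled arrays, 203, 206 and 187 in the EGF arrays and 113, 100.3 and 127 in the vector arrays. The groups were separate, vector lowest. Its log2 change was 1.36 ± 0.12 (SE, limma adjusted p = 1.76e-08) in ERBB2-labelled arrays and 0.74 ± 0.12 (adjusted p = 8.94e-05) with EGF. NUP35, a ring subunit that touches the membrane, read 488, 523 and 594 in ERBB2-labelled arrays, 426, 438 and 460.0 in the EGF arrays and 218, 195 and 214 in the vector arrays. EGF arrays lay near the ERBB2-labelled ones, and both lay far above vector. NUP35 changed by 1.29 ± 0.10 (limma adjusted p = 3.66e-09) in ERBB2-labelled arrays and 1.02 ± 0.10 (adjusted p = 2.05e-07) with EGF, and the difference of 0.27 between ERBB2-labelled arrays and EGF was not called (adjusted p = 0.0671). NUP188, one of a pair of large ring scaffolds with NUP205, read 193, 210.0 and 247 in ERBB2-labelled arrays, 116, 124 and 123 in the EGF arrays and 113, 90.0 and 94.2 in the vector arrays. ERBB2-labelled arrays stood apart from the rest, and the lowest EGF array was just above the highest vector array. NUP188 changed by 1.01 ± 0.14 (limma adjusted p = 5.53e-06) in ERBB2-labelled arrays and by 0.26 ± 0.14 (adjusted p = 0.178) with EGF, a difference of 0.75 (adjusted p = 3.58e-04). NUP205 rose by 1.02 in ERBB2-labelled arrays and 0.45 with EGF, and NUP155 by 1.08 in ERBB2-labelled arrays and 0.57 with EGF. The EGF call of NUP205 ended when its probe sets were averaged (0.13, adjusted p = 0.306).

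NUP210, the glycoprotein that spans the pore membrane, differed most between ERBB2-labelled and EGF arrays among the 55 genes. Its signal was 199, 198 and 147 in ERBB2-labelled arrays, 37.0, 35.9 and 62.3 in the EGF arrays and 54.7, 61.5 and 40.5 in the vector arrays. All 3 ERBB2-labelled arrays lay far above the other 6, and EGF and vector arrays overlapped. The log2 change was 1.53 ± 0.19 (SE, limma adjusted p = 2.36e-06) in ERBB2-labelled arrays and -0.17 ± 0.19 (adjusted p = 0.562) with EGF, and the difference of 1.71 ± 0.19 was called (adjusted p = 1.72e-06). Of its 4 further probe sets 3 were also higher in ERBB2-labelled arrays than with vector (1.39, 1.10 and 0.73), while the remaining one was at 0.09 (adjusted p = 0.801).

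All 4 channel nucleoporins rose in ERBB2-labelled arrays and 3 of 4 with EGF. NUP62, whose repeats line the channel, read 259.8, 287 and 298 in ERBB2-labelled arrays, 155, 205 and 215 in the EGF arrays and 169, 208 and 208 in the vector arrays. ERBB2-labelled arrays were highest and the EGF and vector arrays overlapped. Its log2 change was 0.50 ± 0.13 (SE, limma adjusted p = 0.00477) in ERBB2-labelled arrays and -0.03 ± 0.13 (adjusted p = 0.899) with EGF, with a called difference of 0.53 (adjusted p = 0.00551). NUP98, a repeat protein of the channel that also binds RNA export factors, read 289, 247 and 247 in ERBB2-labelled arrays, 233, 232 and 206 in the EGF arrays and 104, 104 and 132 in the vector arrays. Every ERBB2-labelled array lay above every EGF array, though by little, and both lay above vector. NUP98 changed by 1.10 ± 0.13 (limma adjusted p = 6.72e-07) in ERBB2-labelled arrays and 0.89 ± 0.13 (adjusted p = 1.87e-05) with EGF. Its further probe sets were at 0.32 and 0.58 in ERBB2-labelled arrays and at 0.26 and 0.28 with EGF, and of these 4 values 0.58 alone was called (adjusted p = 0.00233). Of the NUP62 partners, NUP58 rose by 1.45 in ERBB2-labelled arrays and 0.88 with EGF, and NUP54 by 0.66 in ERBB2-labelled arrays and 0.68 with EGF. The 3 further NUP58 probe sets were at -0.24, 0.38 and 0.31 in ERBB2-labelled arrays, none called, so its rise there rests on 1 probe set. Between ERBB2-labelled arrays and EGF, NUP58 was at 0.57 (limma adjusted p = 0.00433) on its brightest probe set and at -0.93 (adjusted p = 1.56e-04) on another.

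On the cytoplasmic face and at the basket the picture was mixed. NUP88, a partner of NUP214 at the cytoplasmic ring, rose by 0.99 in ERBB2-labelled arrays and 0.58 with EGF. NUP42, which binds the export factor GLE1, rose by 0.42 in ERBB2-labelled arrays (adjusted p = 0.0367), a call that ended without ERBB2 replicate 1 (0.36, adjusted p = 0.118) and in 6 other alternatives. NUP214 was not called on its brightest probe set, at 0.11 in ERBB2-labelled arrays and -0.38 with EGF. A dimmer NUP214 probe set was 0.84 higher in ERBB2-labelled arrays than with vector (limma adjusted p = 0.0140). Another was 0.78 higher in ERBB2-labelled arrays than with EGF (adjusted p = 0.0398). RANBP2, the SUMO ligase of the cytoplasmic filaments, read 466, 484 and 538 in ERBB2-labelled arrays, 709, 623 and 736 in the EGF arrays and 576, 501 and 482 in the vector arrays. The EGF arrays were highest and ERBB2-labelled arrays overlapped vector. RANBP2 changed by -0.06 ± 0.10 (SE, limma adjusted p = 0.665) in ERBB2-labelled arrays and 0.40 ± 0.10 (adjusted p = 0.00452) with EGF. A second RANBP2 probe set was 0.96 higher in ERBB2-labelled arrays (adjusted p = 1.07e-06) and at 0.23 with EGF. With the mean of all RANBP2 probe sets the change in ERBB2-labelled arrays was 0.48. NUP153, the basket protein that docks importin beta, read 506, 621 and 599.6 in ERBB2-labelled arrays, 537, 512 and 508 in the EGF arrays and 369, 406 and 377 in the vector arrays. Vector was lowest, and ERBB2-labelled arrays and EGF overlapped. NUP153 changed by 0.56 ± 0.10 (limma adjusted p = 9.42e-05) in ERBB2-labelled arrays and 0.42 ± 0.10 (adjusted p = 0.00239) with EGF. Both calls ended when its probe sets were averaged, at 0.12 in ERBB2-labelled arrays and 0.25 with EGF. NUP50, which speeds cargo release from importin alpha, rose by 0.49 in ERBB2-labelled arrays and was at 0.06 with EGF. A dimmer NUP50 probe set was called with EGF, at 0.46 (limma adjusted p = 0.00431), and others, at 0.22 and 0.35, were not.

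**Figure D4:**
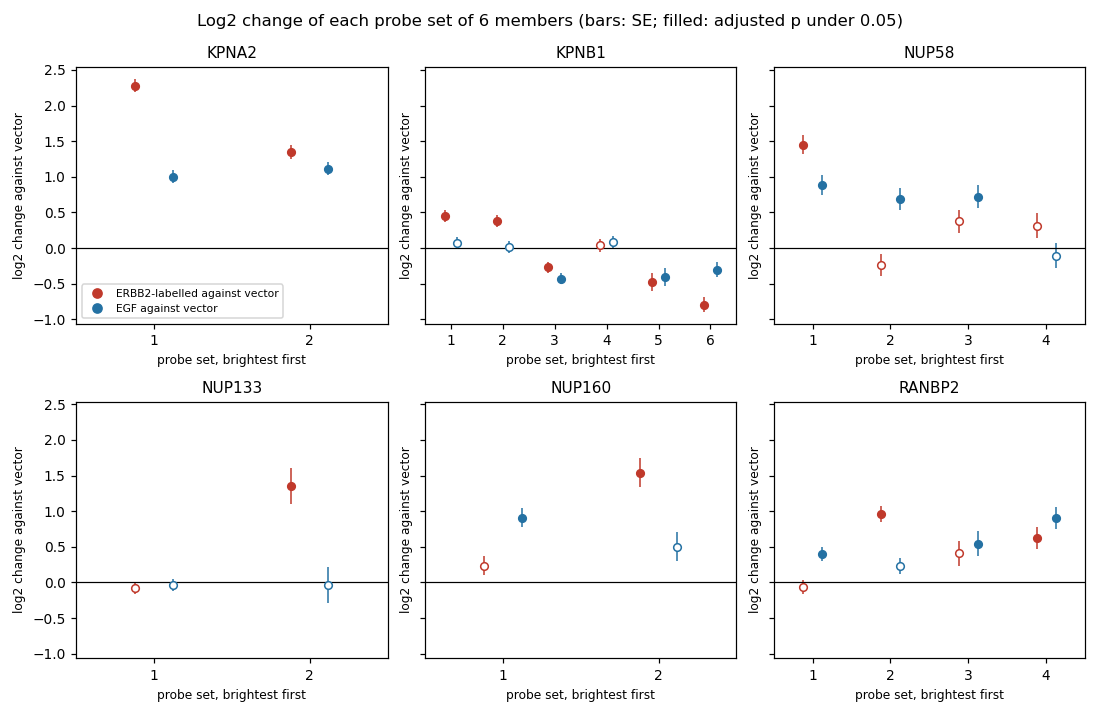
Log2 change against vector of every probe set past the filter for 6 genes, in ERBB2-labelled arrays (red) and with EGF (blue), with SEs and filled points for an adjusted p under 0.05. Both KPNA2 probe sets lie above 0, whereas KPNB1 runs from 0.45 to -0.80 in red and NUP133, NUP160 and RANBP2 each have probe sets near 0 and above it.

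KPNA2, the importin alpha that peaks in dividing cells, had the largest rise of the 55 in ERBB2-labelled arrays on the brightest probe sets. Its signal was 4429.9, 4372 and 3700.2 in ERBB2-labelled arrays, 1477, 1915 and 1749 in the EGF arrays and 872, 869.8 and 791 in the vector arrays. The 3 groups were widely separated, with ERBB2-labelled arrays highest. KPNA2 was 4.85-fold higher in ERBB2-labelled arrays (log2 change 2.28 ± 0.09, SE, limma adjusted p = 2.57e-13) and 2.00-fold higher with EGF (1.0 ± 0.09, adjusted p = 8.53e-08). Its other probe set rose by 1.35 (adjusted p = 5.92e-10) in ERBB2-labelled arrays and 1.11 (adjusted p = 2.31e-08) with EGF, and the called difference of 1.28 between ERBB2-labelled arrays and EGF was 0.24 and not called there (adjusted p = 0.0797). Other importin alpha genes had smaller changes. KPNA3 rose by 0.65 in ERBB2-labelled arrays and 0.56 with EGF, and KPNA4 by 0.52 in both. KPNA1 rose by 0.40 in ERBB2-labelled arrays, a call lost in 5 of 21 alternatives. Among them were leaving out vector replicate 1 (0.33, adjusted p = 0.0536) or vector replicate 3 (0.31, adjusted p = 0.0689). The KPNA1 call also ended with its probe sets averaged (0.17, adjusted p = 0.129) and on its brightest probe set outside the _x_at and _s_at types (0.21, adjusted p = 0.141). KPNA6 rose by 0.34 with EGF, a call lost without vector replicate 3 (0.24, adjusted p = 0.155) and in 5 other alternatives. KPNA5 read 46.7, 44.5 and 76.9 in ERBB2-labelled arrays, 41.8, 33.8 and 41.1 in the EGF arrays and 84.8, 71.5 and 71.4 in the vector arrays. All EGF arrays lay below all vector arrays, while the ERBB2-labelled ones overlapped vector. KPNA5 changed by -0.38 ± 0.20 (SE, limma adjusted p = 0.144) in ERBB2-labelled arrays and -0.74 ± 0.20 (adjusted p = 0.00694) with EGF, and the EGF call ended when its probe sets were averaged (-0.36, adjusted p = 0.0849).

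KPNB1, importin beta itself, could not be given one direction. Its brightest probe set read 2009, 2197 and 2054 in ERBB2-labelled arrays, 1690.5, 1619 and 1512 in the EGF arrays and 1636, 1404 and 1535 in the vector arrays. ERBB2-labelled arrays were highest and EGF overlapped vector. That probe set changed by 0.45 ± 0.08 (SE, limma adjusted p = 9.38e-05) in ERBB2-labelled arrays and 0.08 ± 0.08 (adjusted p = 0.518) with EGF. A second one was at 0.38 (adjusted p = 0.000965), but 3 others were lower there, at -0.27, -0.48 and -0.80 (adjusted p = 0.0100, 0.00525 and 3.06e-06). The same 3 were also lower with EGF, at -0.43, -0.40 and -0.30 (limma adjusted p = 3.01e-04, 0.0214 and 0.0318).

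In each comparison with vector, 8 of the 12 importins of the beta family were not called. With KPNB1 counted, 4 rose in ERBB2-labelled arrays, and 3 rose and 1 fell with EGF. IPO4, a carrier of histones and ribosomal proteins, rose by 0.72 in ERBB2-labelled arrays and 0.47 with EGF. TNPO3, which imports splicing factors rich in serine and arginine, rose by 0.43 in ERBB2-labelled arrays and was at 0.22 with EGF. IPO9 rose by 0.37 in ERBB2-labelled arrays and was at -0.07 with EGF. IPO7, which also carries ribosomal proteins, was at -0.07 in ERBB2-labelled arrays and 0.28 with EGF (adjusted p = 0.00941), and its 3 further probe sets rose with EGF by 0.42 to 0.77. In ERBB2-labelled arrays the further IPO7 probe sets were at 0.20, -0.001 and 0.46, the last one called (limma adjusted p = 9.13e-04). RANBP6, a close relative of IPO5, read 263, 229 and 215 in ERBB2-labelled arrays, 469, 379 and 371 in the EGF arrays and 275, 235 and 244 in the vector arrays. The EGF arrays stood above all others, and ERBB2-labelled arrays overlapped vector. RANBP6 changed by -0.09 ± 0.12 (SE, limma adjusted p = 0.608) in ERBB2-labelled arrays and 0.66 ± 0.12 (adjusted p = 2.52e-04) with EGF, and the difference of -0.74 was called (adjusted p = 8.62e-05). TNPO1, the carrier of hnRNP proteins, read 1718, 1626 and 1639 in ERBB2-labelled arrays, 1546, 1347 and 1364 in the EGF arrays and 1762, 1718 and 1564 in the vector arrays. EGF arrays were lowest, by a narrow margin. TNPO1 changed by -0.02 ± 0.08 in ERBB2-labelled arrays and -0.24 ± 0.08 (limma adjusted p = 0.0235) with EGF. The EGF call was lost in 8 of 21 alternatives, among them leaving out vector replicate 1 (-0.21, adjusted p = 0.0846). Further TNPO1 probe sets at -0.35 and -0.28 in ERBB2-labelled arrays were called lower than vector (limma adjusted p = 0.012 and 0.017), and the others were not called there. IPO5, IPO8, IPO13, TNPO2 and RANBP17 lay between -0.11 and 0.22 in ERBB2-labelled arrays and between -0.26 and 0.13 with EGF, none called on its brightest probe set. Further IPO5 probe sets were called in both directions: 1 was at 0.43 in ERBB2-labelled arrays (limma adjusted p = 0.00135) and 0.36 with EGF (adjusted p = 0.00933), and another at -0.38 in ERBB2-labelled arrays (adjusted p = 0.0339).

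Exportins rose in both groups, 4 of 5 each. XPO5, which exports microRNA precursors, read 389.5, 326 and 284 in ERBB2-labelled arrays, 508, 423 and 407 in the EGF arrays and 143, 126 and 123 in the vector arrays. EGF arrays were highest and every treated array exceeded every vector array. XPO5 was 2.37-fold higher in ERBB2-labelled arrays (log2 change 1.24 ± 0.13, SE, limma adjusted p = 1.13e-07) and 3.14-fold higher with EGF (1.65 ± 0.13, adjusted p = 5.69e-09). The difference between them, -0.41 (adjusted p = 0.0223), lost its call without EGF replicate 1 (-0.31, adjusted p = 0.132). It also lost it without ERBB2 replicate 2 (-0.40, adjusted p = 0.0606) and without ERBB2 replicate 3 (-0.30, adjusted p = 0.126). XPO1, the receptor for leucine-rich export signals, read 1913, 1804 and 1990.0 in ERBB2-labelled arrays, 1987, 2059 and 1988 in the EGF arrays and 1474, 1446 and 1369 in the vector arrays. ERBB2-labelled arrays and EGF overlapped, and both lay above vector. XPO1 changed by 0.41 ± 0.07 (limma adjusted p = 1.01e-04) in ERBB2-labelled arrays and 0.49 ± 0.07 (adjusted p = 2.40e-05) with EGF. Both calls ended when its probe sets were averaged, at 0.28 in ERBB2-labelled arrays and 0.07 with EGF. XPO4 rose by 1.17 in ERBB2-labelled arrays and 0.83 with EGF. XPO6, the exporter of actin, rose by 0.51 in ERBB2-labelled arrays and 0.37 with EGF. XPO7 was at -0.01 in ERBB2-labelled arrays and 0.04 with EGF on its brightest probe set. A dimmer XPO7 probe set was 0.45 higher in ERBB2-labelled arrays than with vector (limma adjusted p = 0.0114) and 0.66 higher than with EGF (adjusted p = 0.00114). The remaining one was not called.

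RANBP9, a scaffold protein matched by its symbol, was the 1 gene whose brightest probe set fell in ERBB2-labelled arrays. Its signal was 484, 635 and 643 in ERBB2-labelled arrays, 770.4, 801 and 738 in the EGF arrays and 964, 907 and 865 in the vector arrays. The groups did not overlap and vector was highest. RANBP9 changed by -0.63 ± 0.10 (SE, limma adjusted p = 4.03e-05) in ERBB2-labelled arrays and -0.24 ± 0.10 (adjusted p = 0.0847) with EGF. Further RANBP9 probe sets were called lower with EGF instead, at -0.36 and -0.49 (limma adjusted p = 0.030 and 0.021). In ERBB2-labelled arrays those probe sets were at -0.26 and -0.31, not called. NUP62CL rose by 0.66 in ERBB2-labelled arrays and 0.46 with EGF, the EGF call (adjusted p = 0.0424) ending in 8 alternatives that include each vector and each EGF array left out. Other genes matched by symbol only, IPO5P1, IPO9-AS1, NUP210P1, NUP50-DT and RANBP10, were not called.

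Seen across all comparisons, 11 genes were called higher in each of the 3, so that they were highest in ERBB2-labelled arrays, intermediate with EGF and lowest with vector: KPNA2, RAN, RANBP1, NUP37, NUP58, NUP85, NUP88, NUP93, NUP107, NUP155 and NUP205. That order is of the brightest probe sets, and for NUP58 the difference between ERBB2-labelled arrays and EGF turned to -0.07 (limma adjusted p = 0.678) with its probe sets averaged. Another 11 rose against vector in both groups with no called difference between them, among them NUP35, NUP98, NUP153, XPO1, XPO4 and KPNA3. A call missing between the groups does not show that they acted alike. For 7 genes the rise was called in ERBB2-labelled arrays and the direct difference from EGF was called as well (NUP210, NUP188, NUP62, NUP50, NUP43, IPO9 and KPNB1). For 4 the rise was called with EGF and the direct difference ran the other way (IPO7, NUP160, RANBP2 and RANBP6). On a further probe set the direct difference was called with the opposite sign for NUP160 (1.04), RANBP2 (0.73) and KPNB1 (-0.49). Averaging the probe sets ended the direct call of each of these genes, at 0.18 for NUP160, -0.04 for RANBP2 and 0.05 for KPNB1. With equal array medians NUP155, NUP37, NUP43, NUP88, RAN and TNPO1 lost their call between ERBB2-labelled arrays and EGF. The share of all genes tested with each combination of calls was not counted. Whether these combinations are more frequent here than over all genes is therefore not known.

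Pathway genes outside the symbol rule were described from lists of known members. Each was read on its brightest probe set alone, and its further probe sets and the alternative settings were not examined. As background for each list, 20.8% of all 13723 genes tested rose and 25.1% fell in ERBB2-labelled arrays. With EGF 17.2% rose and 19.0% fell. Between ERBB2-labelled arrays and EGF 12.8% were higher and 16.1% lower. Of 11 other nucleoporins 7 rose in ERBB2-labelled arrays, while 6 rose and 1 fell with EGF. NDC1, a nucleoporin of the pore membrane, rose by 1.59 in ERBB2-labelled arrays and 0.72 with EGF. SEH1L, a Y complex subunit, rose by 1.09 in ERBB2-labelled arrays and 1.23 with EGF. DDX19A, a helicase of mRNA export, rose by 0.57 in ERBB2-labelled arrays and 1.08 with EGF. AHCTF1, which seeds pores on chromatin, was at 0.02 in ERBB2-labelled arrays and rose by 0.57 with EGF, and POM121C, a membrane nucleoporin, rose by 0.49 in ERBB2-labelled arrays and was at 0.33 with EGF.

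Of 8 other genes of the Ran cycle and karyopherins, 7 rose in ERBB2-labelled arrays and 6 with EGF. RANGAP1, the activator of GTP hydrolysis by RAN, rose by 1.49 in ERBB2-labelled arrays and 0.77 with EGF. CSE1L, which returns importin alpha to the cytoplasm, rose by 1.10 in ERBB2-labelled arrays and 0.34 with EGF. XPOT, the exporter of transfer RNA, rose by 0.98 in ERBB2-labelled arrays and 0.83 with EGF, and HEATR3 by 1.11 in ERBB2-labelled arrays and 1.09 with EGF. RCC2, a relative of the RAN exchange factor RCC1, rose by 0.77 in ERBB2-labelled arrays and 0.69 with EGF.

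Of 16 genes of mRNA and ribosome export 6 rose and 1 fell in ERBB2-labelled arrays, and 7 rose with EGF. NXT1, the partner of the mRNA exporter NXF1, rose by 1.68 in ERBB2-labelled arrays and 1.84 with EGF. ALYREF, an adaptor that loads it, rose by 1.27 in ERBB2-labelled arrays and 1.02 with EGF, and the helicase DDX39A by 1.30 in ERBB2-labelled arrays and 0.32 with EGF. THOC1, a subunit of the THO complex, rose by 0.64 in ERBB2-labelled arrays and 0.38 with EGF, and FYTTD1, another adaptor, was at 0.18 in ERBB2-labelled arrays and rose by 0.41 with EGF. Of 6 SUMO genes 4 rose and 1 fell in ERBB2-labelled arrays, and 2 rose and 1 fell with EGF. SAE1, part of the activating enzyme, rose by 1.09 in ERBB2-labelled arrays and 0.44 with EGF, and the protease SENP1 rose by 1.04 in ERBB2-labelled arrays and was at 0.33 with EGF. The protease SENP3 rose by 0.58 in ERBB2-labelled arrays and 0.57 with EGF, and the ligase PIAS1 fell, with changes of -0.38 in ERBB2-labelled arrays and -0.49 with EGF.

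Of 15 genes of the nuclear lamina and envelope 8 rose and 4 fell in ERBB2-labelled arrays, and 7 rose and 3 fell with EGF. Those falls were near the shares of all genes, 25.1% in ERBB2-labelled arrays and 19.0% with EGF. The lamins LMNB1 and LMNB2 rose by 1.87 and 1.70 in ERBB2-labelled arrays and by 1.17 and 1.21 with EGF. TMPO, a lamina-associated protein, rose by 1.59 in ERBB2-labelled arrays and 1.17 with EGF. SYNE2, a linker of the nucleus to the cytoskeleton, fell, with changes of -2.86 in ERBB2-labelled arrays and -2.18 with EGF. Genes that work with RAN and the importins in mitosis went different ways: 6 of 7 rose and 1 fell in ERBB2-labelled arrays, while with EGF 2 fell and none rose in limma, 2 being higher at an unadjusted p under 0.05. AURKA, a mitotic kinase, rose by 2.22 in ERBB2-labelled arrays and was at 0.34 with EGF. KIFC1 and KIF11, spindle motors, rose by 1.66 and 1.53 in ERBB2-labelled arrays and were at 0.64 and 0.12 with EGF. HMMR, a spindle assembly factor, rose by 1.58 in ERBB2-labelled arrays and was at 0.08 with EGF. NUMA1, a spindle pole protein, fell, with changes of -0.66 in ERBB2-labelled arrays and -0.96 with EGF, and NUSAP1, a spindle microtubule binder, rose by 1.07 in ERBB2-labelled arrays and fell with EGF, with a change of -0.39. The direct difference from EGF was called for 6 of these 7, AURKA at 1.88 (limma adjusted p = 3.29e-08). Mitotic genes were thus higher in the arrays in which KPNA2 and most nucleoporins were highest, and their part in those rises was not tested.

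**Figure D5:**
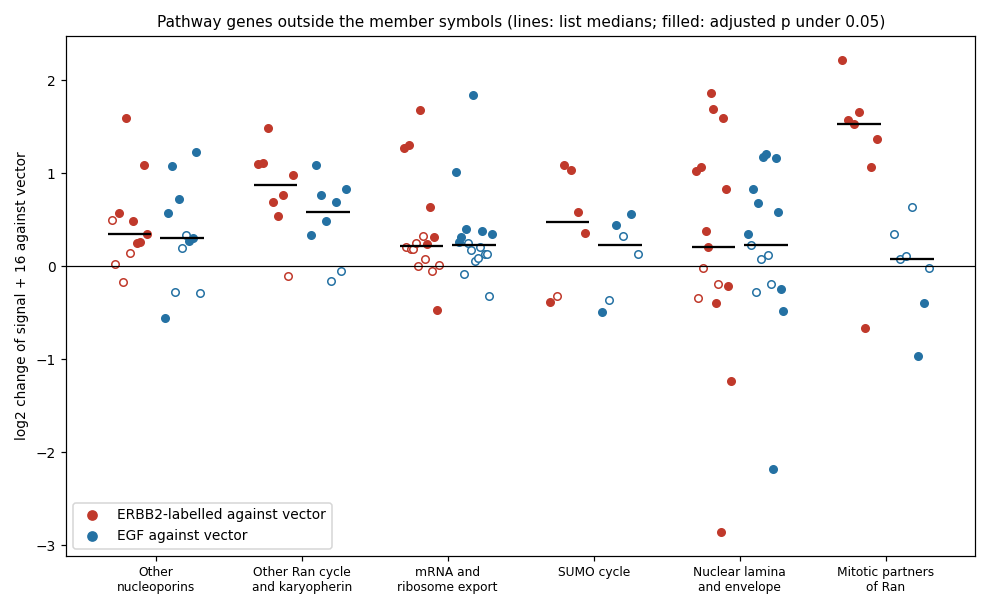
Log2 change of signal + 16 against vector for pathway genes outside the symbol rule, by list, in ERBB2-labelled arrays (red) and with EGF (blue); 1 point is a gene, filled at an adjusted p under 0.05, and lines are list medians. Mitotic genes have a median of 1.53 in red and 0.08 in blue, and the lowest lamina gene is SYNE2 in both.

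Other probe sets of the called genes mostly had the same sign, though many were not called themselves. For 24 genes called in ERBB2-labelled arrays against vector, 49 further probe sets passed the filter, of which 40 had the same sign, 21 of them called, and 3, all of KPNB1, were called with the opposite sign. With EGF 34 of 41 had the same sign, 16 of them called, and none was called opposite. Between ERBB2-labelled arrays and EGF 32 of 45 had the same sign, 14 of them called, and 4 were called opposite, from KPNB1, NUP58, NUP160 and RANBP2. Genes with no call on the brightest probe set but a call on a further one numbered 9 in ERBB2-labelled arrays against vector (IPO5, IPO7, NUP133, NUP160, NUP214, RANBP2, RANBP3, TNPO1 and XPO7). They numbered 5 with EGF against vector (IPO5, KPNA1, KPNB1, NUP50 and RANBP9) and 10 between ERBB2-labelled arrays and EGF. Over 21 alternative settings, 28 of the 34 calls of ERBB2-labelled arrays against vector were kept in all, 21 of 30 with EGF and 11 of 25 between ERBB2-labelled arrays and EGF.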

How the data were processed

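RNA of MCF10A cells was read on 9 arrays, 3 per group, and groups came from the sample titles. The files deposited hold intensities on a linear scale, with 1 value for a probe set on an array. The authors made them with MAS5, per the submitters' processing notes; its version is not given in the sources used here. MAS5 scales each array as a whole: leaving out the lowest and highest 2% of probe sets, the mean was 100.0 on each of the 9. Detection calls and protein sequences were not used here, and the number of arrays limits the precision.

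Intensities were analysed as log2(signal + 16). The platform annotation named 1 gene for 41097 of 54675 probe sets, and those with several (1801) or none (11777) were tested but not named. After 62 control probe sets and those with a mean below the 40th percentile were left out, 32768 probe sets and 13723 genes remained. Group means over all 9 arrays were fitted with limma 3.58.1 (lmFit and trended eBayes, R 4.3.3), with Benjamini-Hochberg adjustment over all probe sets. A single gene tested alone, 3 arrays against 3, could not reach an exact permutation p below 0.1. Array values are printed for the 5 largest called rises and falls of each comparison and for RAN, RANBP1, KPNA2, KPNB1, XPO1, NUP62, NUP98, NUP153, NUP107 and NUP93. Of each list, up to 4 called genes with the largest changes against vector are named for each group. List genes were not picked by the difference between ERBB2-labelled arrays and EGF, so some called in that comparison are not named. The genes, lists and rule were chosen with earlier results of these data known. Deviations of same-numbered replicates correlated between -0.030 and 0.019 over 9 pairs, so numbers were not taken to pair samples. Alternatives were array weights, quantile normalization or equal medians of the arrays, a filter at the 60th percentile or none, pseudocounts of 1 and 64, eBayes without a trend, arrays of the compared groups alone, a replicate block, each array left out, the mean of a gene's probe sets and its brightest probe set outside the _x_at and _s_at types.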

Additional observations from a re-analysis of the deposited data

Results flagged for a closer look

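On the brightest probe sets, 7 genes were flagged by 2 conditions together. Their changes against vector had opposite signs for ERBB2-labelled arrays and EGF, and the direct difference between those groups was called in limma. Further genes, among them NUP214, IPO13 and RANBP3, had opposite signs without a called direct difference. NUP210 had the largest difference, 1.71 on the log2 scale, with changes of 1.53 in ERBB2-labelled arrays and -0.17 with EGF. NUP62 differed by 0.53 (0.50 ERBB2-labelled, -0.03 EGF), IPO9 by 0.44 (0.37 ERBB2-labelled, -0.07 EGF) and NUP43 by 0.35 (0.31 ERBB2-labelled, -0.04 EGF), all higher in ERBB2-labelled arrays. RANBP6 differed by -0.74 (-0.09 ERBB2-labelled, 0.66 EGF), RANBP2 by -0.46 (-0.06 ERBB2-labelled, 0.40 EGF) and IPO7 by -0.36 (-0.07 ERBB2-labelled, 0.28 EGF), all lower in ERBB2-labelled arrays than with EGF. In each of the 7 the smaller of the 2 changes was itself not called, so opposite signs do not show opposite responses.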

How the results depend on the processing

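Over 21 alternatives the number of genes called higher ranged from 23 to 34 in ERBB2-labelled arrays against vector, from 20 to 33 with EGF against vector and from 12 to 22 between ERBB2-labelled arrays and EGF. The last count was 12, of 43 genes that could be tested, with the brightest probe set outside the _x_at and _s_at types, and 3 were then lower. Genes called lower with EGF numbered 1 with equal array medians, 1 without a variance trend, 1 with probe sets averaged and 4 with the compared groups' arrays alone; leaving out single arrays gave 1 to 4, 4 without ERBB2 replicate 1 and 1 without vector replicate 1, EGF replicate 2 or EGF replicate 3. Lower calls between ERBB2-labelled arrays and EGF numbered 3 without a variance trend and 2 with probe sets averaged. Leaving out single arrays gave 1 to 2 lower calls for ERBB2-labelled arrays against vector, 2 without ERBB2 replicate 3. Among genes with printed array values, 8 changes turned direction and were called before or after the turn, each with another choice of probe set. KPNB1 in ERBB2-labelled arrays against vector became -0.11 with the mean of all probe sets and -0.48 with the brightest outside those types, which also gave -0.40 for EGF against vector and -0.072 between the groups. RANBP2 in ERBB2-labelled arrays became 0.48 and 0.62 with those choices, TNPO1 with EGF 0.18 with the second, and NUP160 between the groups 0.18 with the first. The cause of these turns was not tested. Values with no call changed sign under other settings too: RANBP2 in ERBB2-labelled arrays was at 0.012 without vector replicate 1, and NUP62 with EGF at 0.13 with equal array medians. A fit with the replicate number as a replicate block gave 33 genes higher and 1 lower in ERBB2-labelled arrays against vector, 27 higher and 3 lower with EGF against vector, and 19 higher and 6 lower between ERBB2-labelled arrays and EGF. It ended the EGF call of NUP62CL (0.46, adjusted p = 0.0551). On the log2(signal + 16) scale the change of dim probe sets is understated, and a pseudocount of 1 gave 33 higher and 1 lower in ERBB2-labelled arrays against vector.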
